A study of Oryza sativa Japonica Group with 30 samples.

Results

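Prolamins are the alcohol-soluble storage proteins of cereal grains, and 10 rice genes of this family are described here out of 55801 genes with a value. The 10 genes were chosen by identifier: 7 on chromosome 5, in the cluster of 13 kDa prolamins, 2 on chromosome 7 and 1 on chromosome 6. The rule uses no measured level, but the genes were chosen with earlier results of these data known. Each of the 10 identifiers was found once. In rice, prolamins are made in the starchy endosperm, the storage tissue of the grain, and stay in the endoplasmic reticulum, where they form round protein bodies. Glutelins, the other main storage proteins of the rice endosperm, are carried on to the storage vacuole. Prolamins hold little lysine, and their genes stand in tandem copies that resemble each other closely.

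The RNA came from whole rice caryopses, the young grain still inside its fruit coat, taken 7 days after pollination, in 30 samples that form 10 groups of 3. The wild type ZH11, a line overexpressing ONAC127, a line overexpressing ONAC129, an ONAC127 mutant (CR-ONAC127) and an ONAC129 mutant (CR-ONAC129) were each grown in paddy fields under heat and under normal cultivation. ONAC127 and ONAC129 encode NAC transcription factors of the rice seed. Heat-stressed plants were above 35 °C for about 6 h a day, with highs near 40 °C, and plants under normal cultivation were above 35 °C on only 3 days, with a daytime mean near 30 °C. All 30 samples had 14 h of light and 10 h of dark. The labels give no promoter for the overexpression, no number of independent lines and no source plant for the samples.

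The values hold 1 number per gene, the mean of the normalised read counts over all libraries, so each level below averages all 5 genotypes and both conditions. Whether any prolamin gene responded to ONAC127, ONAC129 or heat was not analysed here, and no spread between samples can be given. The mean in any group of 3 samples can be at most 10 times the pooled mean, the case in which all reads came from that group. The lowest values of the profile give the worth of 1 read in each of 30 libraries, from 0.0203 to 0.0605 normalised counts, and hence relative depths (size factors) from 0.551 to 1.64. These set limits on the number of reads behind each level and on its counting error, which covers neither biological nor technical spread. No division by gene length was made, so the values are levels of reads and not of transcripts, and sentences that set genes side by side below compare reads.

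All 10 prolamin genes were read, as were 40831 of all 55801 genes. Of the 10, 3 carried nearly all of their normalised counts. The 10 levels summed to 41312 normalised counts, with a counting SE of at most 49.98, or 0.356% of the total over all genes. Behind this sum stood at least 683202 reads. The 3 genes on chromosomes 6 and 7 held 95.3% of it, and the 7 genes of the chromosome 5 cluster held 4.66%. With 11 other prolamin loci, described below, counted in, the 10 genes held 45.1% of the wider sum. The 10 single levels spanned a range of 3825 times. Of the 10 genes, 4 exceeded 1000 normalised counts, as did 3.78% of all genes, 4 lay between 100 and 1000, and 2 lay below 100. Close copies can share reads, and the sources used here do not say how reads that map to more than 1 copy were counted. The single levels of all 10 genes are therefore uncertain, and sums are given beside them. Sums do not remove this limit. If shared reads were left uncounted, the sums would miss them, as would the shares and ratios made from them. This was not tested.

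**Figure D1:**
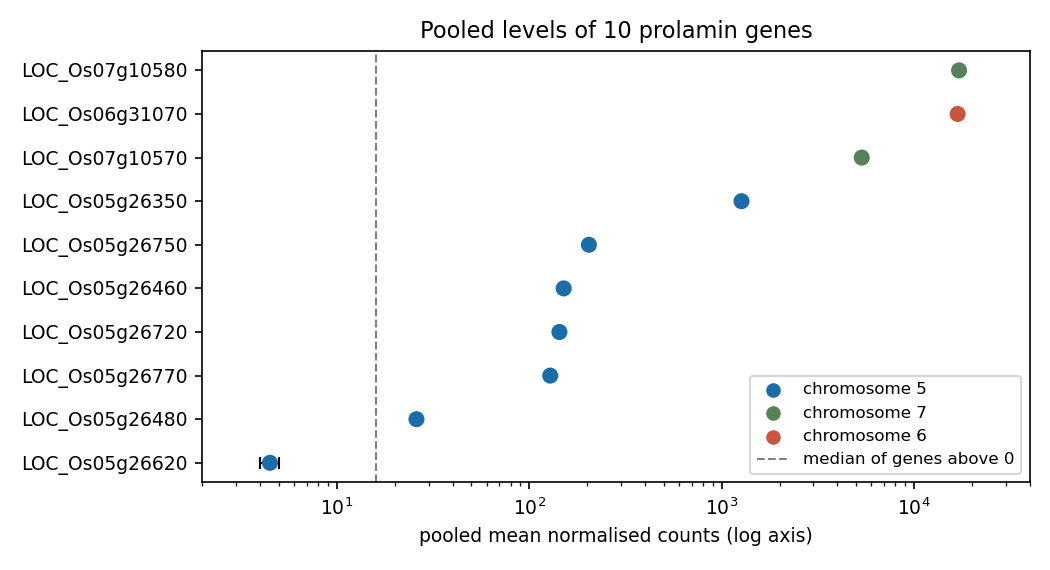
Pooled mean normalised counts (log axis) of the 10 prolamin genes, ordered by level and coloured by chromosome. Whiskers are the largest counting SE the depths allow, mostly smaller than the points, and the dashed line marks 15.9, the median of the genes with any read. The 3 genes of chromosomes 6 and 7 lie at 5352 or higher, LOC_Os05g26350 follows at 1269 and LOC_Os05g26620 is the only 1 of the 10 below the dashed line.

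Among the 10 genes, the chromosome 7 pair had the highest sum of any chromosome. LOC_Os07g10580 had 17159 normalised counts, rank 61 of all genes, from at least 283770 reads. Its neighbour LOC_Os07g10570, the next identifier in order, had 5352 normalised counts, rank 308. The pair summed to 22511 normalised counts, 54.5% of the sum of the 10 genes. LOC_Os07g10580 had 3.21 times the value of LOC_Os07g10570. Only the symbols and synonyms of the reference were searched, for PROLAMIN or names starting with PROLM. This found 1 gene, PROLM25, also on chromosome 7. It carries no LOC_Os identifier, and which of the pair it stands for was not settled. Among the 10 identifiers on either side of the pair, 5 of 20 were at 0 (25%), against 28.2% of all identifiers on chromosome 7. Only 1 of the 20 exceeded 1000 normalised counts, LOC_Os07g10660 at 4947. The pair held 74.9% of the normalised counts of that window.

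The chromosome 6 prolamin LOC_Os06g31070 had 16874 normalised counts, rank 63 of all genes and 40.8% of the sum of the 10 genes. It lay 285 normalised counts below LOC_Os07g10580, a difference that exceeded the upper limit of the counting error (95% interval 196 to 374) but for which the spread between samples is unknown. The identifier just before it, LOC_Os06g31060, also a prolamin from general knowledge, had 475 normalised counts, so that LOC_Os06g31070 had 35.5 times its value. The pair summed to 17349 normalised counts, and how reads they may share were split between them is not known. The identifier just after it, LOC_Os06g31080, was at 0. Of the 20 identifiers around LOC_Os06g31070, 11 were at 0 (55%), against 30.8% of all identifiers on chromosome 6. Only 1 of them exceeded 1000 normalised counts, LOC_Os06g30970 at 2894.

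Within the chromosome 5 cluster of 13 kDa prolamins, 1 gene dominated. LOC_Os05g26350, the first of the 7 genes in identifier order, had 1269 normalised counts, rank 1687 of all genes. This was 65.9% of the 1927 that the 7 genes summed to. LOC_Os05g26750 followed with 204 normalised counts. LOC_Os05g26460 stood at 151 normalised counts and LOC_Os05g26720 had 143.5. These levels differed by 7.49 normalised counts. The 95% interval of this difference was 1.32 to 13.7 with reads spread over the libraries in proportion to their depth, and -0.78 to 15.8 at the upper limit of the counting error, so whether their order exceeds counting error depends on how the reads were spread. LOC_Os05g26770, the last of the 7 genes in identifier order, had 128.6 normalised counts.

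The other chromosome 5 prolamins were low. LOC_Os05g26480 had 25.9 normalised counts, above the median of 15.9 over genes above 0. LOC_Os05g26620 had 4.49 normalised counts, from between 74.2 and 221 reads over all 30 libraries, with a counting SE of at most 0.521. Had all of its reads come from 1 group of 3 samples, the mean there would have been 44.9 normalised counts. The same limit for LOC_Os05g26350 was 12692 normalised counts, below the pooled mean of either LOC_Os07g10580 or LOC_Os06g31070. The other neighbours in the order of the 10 levels differed by more than the upper limit of the counting error.

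The cluster lay in a stretch with few reads outside the 7 prolamins described here. From LOC_Os05g26350 to LOC_Os05g26770 the table held 43 identifiers, and 22 of the 36 that are not among the 10 prolamins were at 0 (61.1%), against 26.1% of all identifiers on chromosome 5. Such a gene had no counted read in any of the 30 libraries. A count of 0 allows a level of up to 0.181 normalised counts, what 3 reads in the library of least depth are worth, for counting error only. A further 3 of the 36 had a single read over all libraries. The highest of the 36 was LOC_Os05g26630 at 120.9 normalised counts, below LOC_Os05g26770 and above LOC_Os05g26480 and LOC_Os05g26620. The 7 prolamins held 86.1% of the normalised counts of the stretch. The 36 include 4 further loci that are prolamins from general knowledge. Of these, LOC_Os05g26440 had 27.4 normalised counts, LOC_Os05g26368 had 19.9, and LOC_Os05g26377 and LOC_Os05g26386 were at 0. Whether reads shared with close copies were left uncounted at these loci was not tested.

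**Figure D2:**
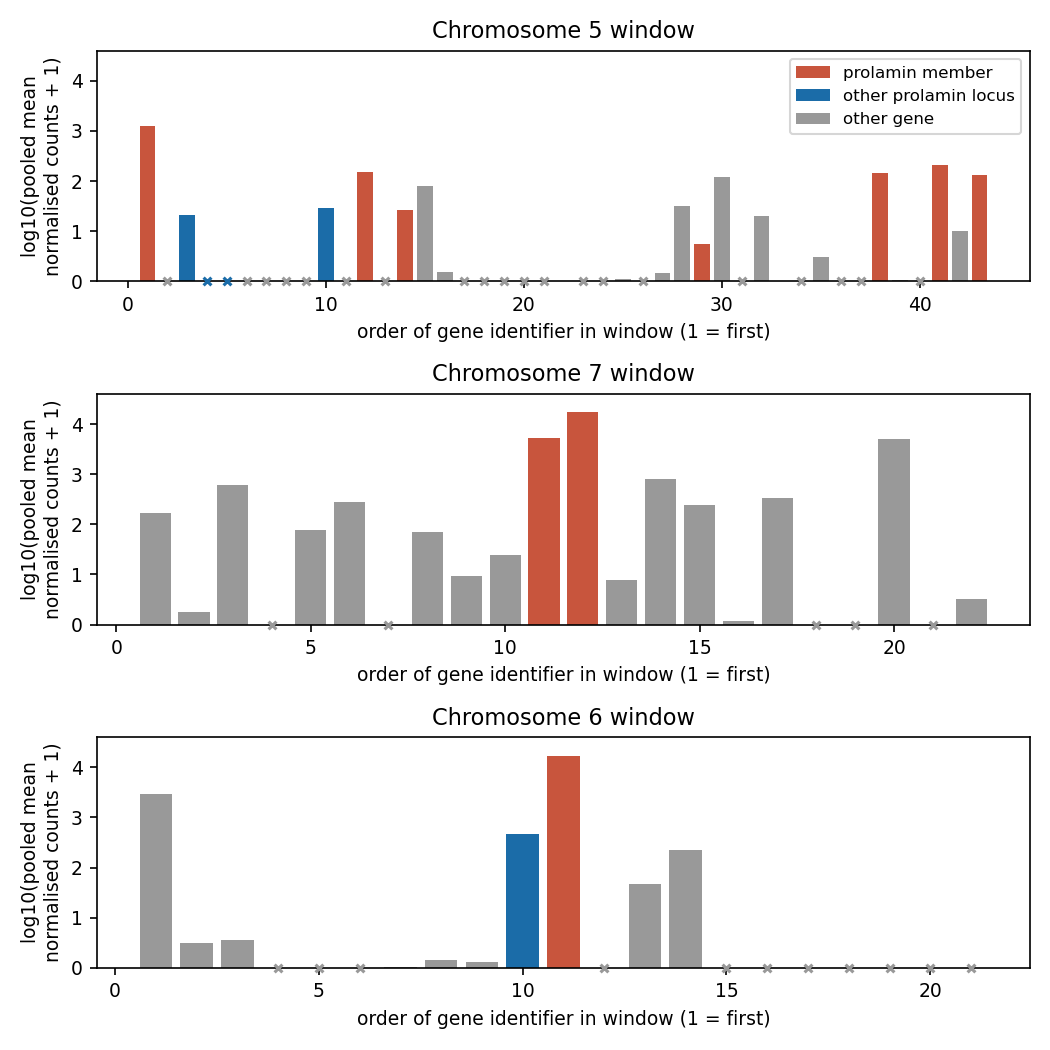
Level of every gene identifier in the chromosome 5 stretch and in the windows around the chromosome 7 and chromosome 6 prolamins, as log10 of pooled mean normalised counts plus 1, in the order of the identifiers. Red bars are the 10 prolamin genes, blue bars are other prolamin loci and grey bars are other genes. Crosses mark genes at 0, which are 22 of the 36 blue and grey genes in the chromosome 5 stretch.

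Prolamin loci outside the 10 genes were read as highly as the highest of them. Of 11 such loci, 4 exceeded 1000 normalised counts, 5 lay between 0 and 1000 and 2 were at 0. These 11 were listed from general knowledge of the rice genome, without symbols, and so were not looked up in the reference. LOC_Os11g33000 on chromosome 11 had 23393 normalised counts, rank 30 of all genes, and LOC_Os12g16890 on chromosome 12 had 21356, rank 35. Both lay above LOC_Os07g10580. The neighbouring identifier LOC_Os12g16880 had 55.9 normalised counts. The 3 loci on chromosome 3, known for the sulphur-rich 10 kDa prolamins, had 3072 (LOC_Os03g55734), 1673 (LOC_Os03g55740) and 305 (LOC_Os03g55730) normalised counts. All 21 loci together summed to 91690 normalised counts, 0.789% of the total. The 10 genes described here held 45.1% of that sum, and the 4 highest loci of the 21 held 85.9%.

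The 10 prolamin genes summed to fewer reads than the glutelin genes in the pooled caryopses. The 11 glutelin genes listed summed to 315676 normalised counts, 2.72% of the total, and the sum of the 10 prolamin genes was 0.131 of theirs. With the 11 other prolamin loci added, it was 0.29 of theirs. The 10 prolamin genes had a median of 178 normalised counts, which 84.1% of all genes did not reach. The glutelin genes had a median of 20338. All 11 glutelin genes exceeded 1000 normalised counts, from GluB6 at 1083 to GluC1 at 66984, and 6 of the 10 prolamin genes lay below GluB6. LOC_Os07g10580 and LOC_Os06g31070 lay between GluB5 at 14680 and GluB7 at 20338. GluB7 is given in the reference as another name of GluB2, so its label is uncertain, and the GluB genes too are close copies. Glutelin transcripts are longer than prolamin transcripts and give more reads each, and no lengths were available for these identifiers, so the ratio is one of reads and not of transcripts. These comparisons have no test, since the pooled means have no replicates.

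The 4 listed activators of storage protein genes and the 4 listed genes of protein folding in the endoplasmic reticulum each exceeded 1000 normalised counts. So did 3.78% of all genes. These 8 were picked from general knowledge, with earlier results of these data known, and do not stand for all such genes. Their count beside the share over all genes is therefore no test. Of the activators of storage protein genes, RPBF, which binds the prolamin box of their promoters, had 20001 normalised counts, NAC26 had 12059, NAC20 had 9389 and bZIP58 had 2229. All 4 lay above the highest chromosome 5 prolamin. In the endoplasmic reticulum, where prolamins fold and assemble, the chaperone BiP1 had 20781 normalised counts and the disulfide isomerase PDIL1-1 had 20924. PDIL2-3, an isomerase found with the prolamin bodies, had 2128 normalised counts, and the thiol oxidase Ero1 had 1425. Both of the latter lay above LOC_Os05g26350 and below LOC_Os07g10570. Nothing about regulation of the prolamin genes by these activators can be read from 1 pooled value per gene.

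**Figure D3:**
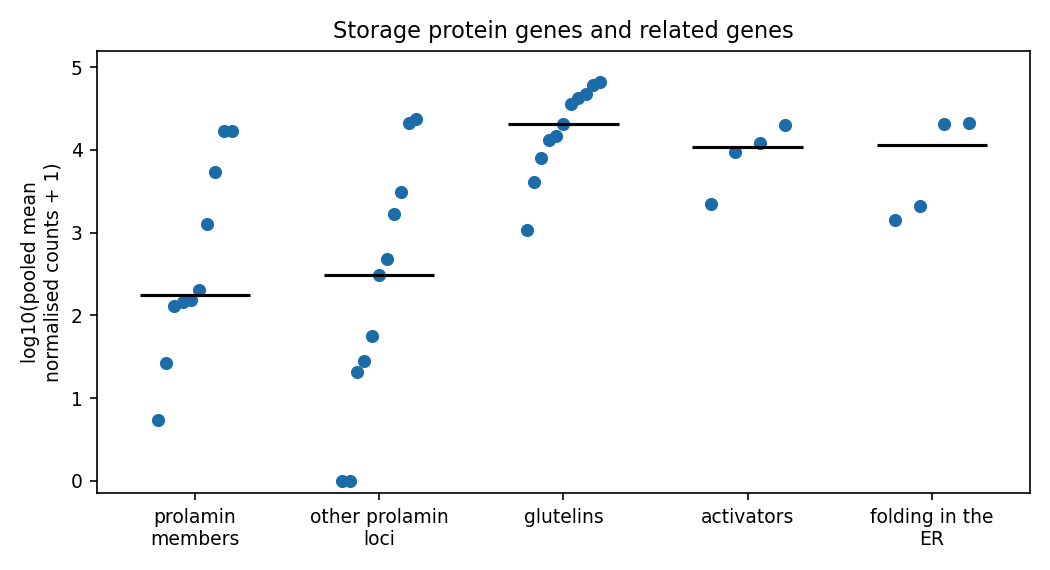
Level of each gene as log10 of pooled mean normalised counts plus 1, for the 10 prolamin genes, the 11 other prolamin loci, the 11 glutelin genes, the 4 activators and the 4 folding genes of the endoplasmic reticulum (ER). Each point is a gene and each line a median. The prolamin genes reach from 4.49 to 17159 normalised counts and the glutelin genes from 1083 to 66984.

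Markers of the caryopsis tissues were looked up, and none was at 0. As 40831 of all 55801 genes were above 0, their presence does not test the caryopsis label. No markers of other organs were looked up. Beside the glutelins of the starchy endosperm, the oleosins Ole16 and Ole18 of embryo and aleurone had 24670 and 21160 normalised counts, and the Rubisco genes RBCS3 and RBCS2, of the green fruit coat, had 2061 and 1352. In whole grains, the share of endosperm cells and the prolamin RNA per cell both enter the level and cannot be told apart.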

How the data were processed

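Total RNA of 30 samples was sequenced, and samples were grouped by title. The submitters' processing notes name HISAT2 2.0.5, CASAVA 1.7 and DESeq2. The sources used here do not give the read counter, the strand setting, the build or the annotation. The 8 deposited tables had the same content. Their baseMean column, named so per the file headers, is a signal the authors computed: the mean over libraries of counts divided by size factors, pooled over all samples. No test of genotype or heat was run.

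Sums, shares, ranks and ratios were computed from these values. Library depths were taken from values below 0.07 that are not sums of smaller ones within 1e-11. On simulated pooled means of 8000 genes, all 30 planted depths were found. Counting SEs assume that all reads came from the shallowest library, which makes them upper limits, unless a spread in proportion to depth is stated, and intervals are 1.96 SE.

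Members and lists were chosen with earlier results of these data known. All 10 members are named, as are window genes above 1000 normalised counts. Adjacent, single and extreme window genes were named after their values were seen. Loci were paired with symbols from general knowledge. Of 23 symbols, 12 were found in the RefSeq table (assembly ASM3414082v1) on the same chromosome and within 0.1 in relative place. For a locus, this place was its identifier number over the highest number on its chromosome, since no coordinates were available. For a RefSeq gene, it was the start over the highest gene end of the chromosome. The 12 include GluB7, given there as another name of GluB2. The other 11 were not found, among them GluB1, GluB6, GluC1, all 4 activators, Ero1, Ole16, RBCS2 and RBCS3. Of the 39387 genes of that table, 0 carry a LOC_Os identifier. Computations used numpy 2.4.6 and pandas 2.3.3 under Python 3.11.15, and figures used matplotlib 3.10.9.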

Additional observations from a re-analysis of the deposited data

How the results depend on the processing

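The prolamin sum of 41312 normalised counts was 41623 with the other genes of the chromosome 5 stretch added, 91690 with the 11 other prolamin loci added and 24153 without LOC_Os07g10580. Its share of the total, 0.356%, was 0.375% without the 10 highest genes in the total, 0.357% over genes of at least 10, 0.358% with the stretch added and 0.208% without LOC_Os07g10580. The ratio to the glutelin sum, 0.131, was 0.182 without the GluB genes, 0.132 with the stretch added and 0.29 with the 11 other prolamin loci added, an alternative chosen after seeing the data. The prolamin median, higher than 84.1% of all genes, was higher than 78.3% of genes above 0 and 59.7% of genes of at least 10. These moves follow from which genes were summed or ranked. The count of 4 genes above 1000 was 4 above 500 and 3 above 2000. The number of libraries found was 30 at 10 times wider and narrower tolerances. No paired analysis was possible because 1 pooled value stands for all samples, and no replicate could be left out. The pooling hides any change in 1 group, and the members' levels cannot be given per length.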
